A study of Mus musculus with 10 samples.

Results

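The RNA of interscapular brown adipose tissue (iBAT) was described here in the 5 Cre- mice of a series of 10 libraries. These 5 libraries were chosen by their labels alone, BAT control 1 to 5, and no Cre+ library entered any value. The mice were C57BL/6J, carried RetSat flox/flox alleles without Ucp1-Cre, were fed normal chow and were killed at 12 to 14 weeks of age. The floxed alleles are shared with the Cre+ mice, in which Cre is driven by the Ucp1 promoter, so the Cre- mice are not unmodified C57BL/6J mice. No cold exposure or drug treatment is given in the labels, and neither the housing temperature nor the hour of collection is stated for these libraries. One library stands for 1 mouse, and values after ± are the SD over 5 libraries. No test was made, since all 5 libraries belong to 1 group.

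Brown adipose tissue burns fatty acids and glucose in mitochondria that are uncoupled by UCP1, a proton carrier of the inner membrane, so that energy is released as heat. Its adipocytes hold many small lipid droplets, are packed with mitochondria and also make new fatty acids when nutrients are abundant. Part of the respiratory chain is encoded by mitochondrial DNA (mtDNA) and the larger part by nuclear genes, and transcripts of both genomes are read together in a library selected for poly(A).

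The 4 markers given for this tissue were all abundant. Ucp1 had 3959.9, 3716, 3614, 4887 and 4363 counts per 1000000 counts assigned to genes (CPM) in libraries 1 to 5. Cidea, a lipid droplet protein of brown adipocytes, had 2560.3, 2206, 2348, 2177 and 2133 CPM, and Fabp4, the fatty acid binding protein of adipocytes, had 7693, 7902, 7128, 8309 and 8334 CPM. mt-Co1, the mtDNA-encoded catalytic subunit of cytochrome c oxidase, had 75593, 65461, 55328, 62938 and 62519.9 CPM and was the gene with the most counts on average. No library was low in any of these markers, so the tissue label was met in each. By the coordinates of the count files (GRCm39), Ucp1 lies at chr8:84016981-84025081, Fabp4 at chr3:10269148-10273636 and Scd1 at chr19:44382894-44396318, and counts cover their exons. Retsat itself, an oxidoreductase of retinol, had 149, 162, 158, 184 and 247 CPM, with library 5 highest.

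The total count per library ranged from 91903095 to 132499312. Of 55414 genes, 29955 had at least 1 count in any library and 25459 had 0 in all 5, which at a limit of 3 counts allows up to 0.0226 to 0.0326 CPM per library. These limits cover counting error only. At least 1 CPM in all 5 libraries was found for 11739 genes. The mean over the libraries was 10 CPM or more for 7861 genes and 1000 CPM or more for 94 genes.

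A small number of genes held a large part of the counts. In libraries 1 to 5, 129, 119, 151, 121 and 135 genes held 50% of the counts, and 7 or 8 genes held 25%. The 10 highest genes of a library took 27.2% to 30.4% of its counts, and 9 of them were shared by all 5 libraries. Library 3 needed the most genes to reach 50%, and it also had the smallest share of mtDNA counts. When counts were divided by the length of all exons of a gene and scaled to sum to 1000000 (TPM), 50% of the sum lay in 13, 18, 25, 18 and 18 genes. Without the 37 mtDNA genes, 50% of the remaining counts were spread over 353 to 452 genes, and library 1 then needed the most.

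**Figure D1:**
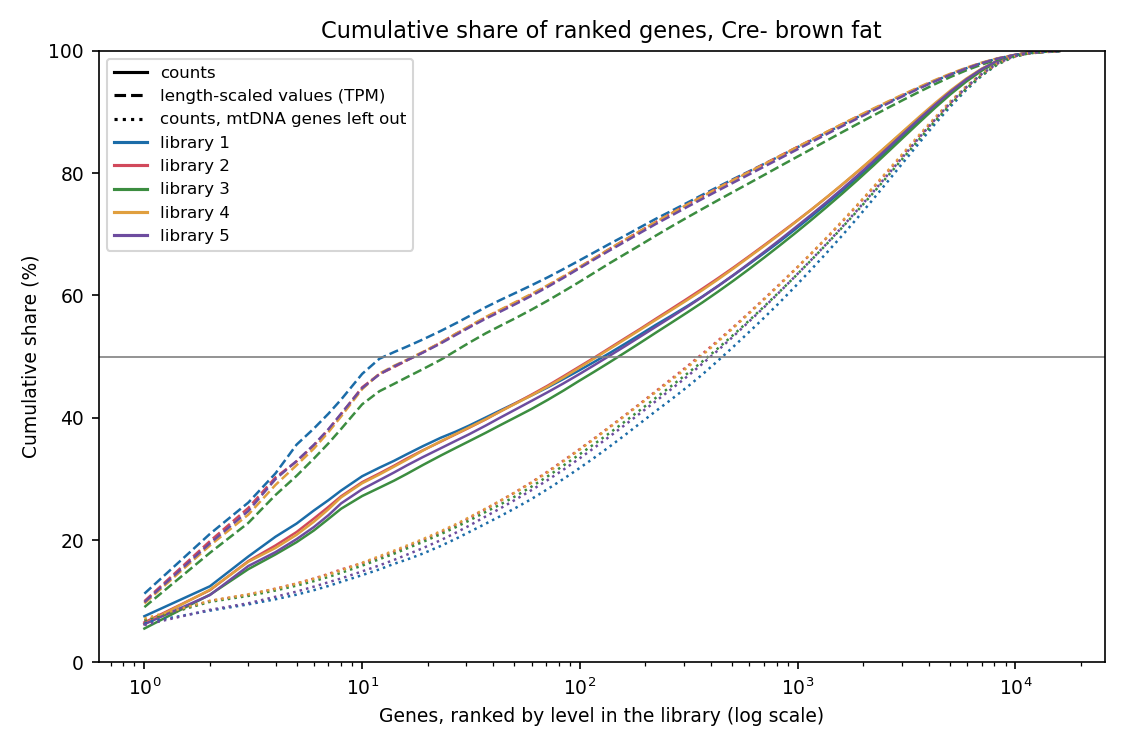
Cumulative share of counts (solid), TPM (dashed) and counts without mtDNA genes (dotted) against the number of genes ranked by level, on a log axis, with 1 colour per library. The horizontal line marks 50%, which was crossed at 119 to 151 genes for counts, 13 to 25 for TPM and 353 to 452 without mtDNA genes.

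The 13 protein genes of mtDNA were the largest class, with 20.5, 19.7, 17.0, 19.1 and 19.4% of the counts (mean 19.1% ± 1.31). Library 1 was highest and library 3 lowest. On the TPM scale the same genes took 37.0% ± 1.5. Almost all of this came from 7 genes. mt-Co1 had 98839.6 ± 8667 TPM and mt-Cytb, the mtDNA-encoded subunit of complex III, had 95919 ± 3423 TPM, which overlap within 1 SD. The complex I genes mt-Nd1 and mt-Nd2 had 51481 ± 2079 and 48829 ± 2432 TPM, whose ranges also overlap. Next came mt-Nd6, mt-Nd4 and mt-Nd5, likewise subunits of complex I, at 25719 ± 1094, 25386 ± 1120.1 and 23856 ± 1851 TPM. mt-Nd6 is encoded on the other strand than its neighbours, and since strand was not used in counting, reads from the opposite strand cannot be told apart from its own.

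The other 6 protein genes of mtDNA were low, although their products belong to the same complexes. mt-Nd3 had 22.1 to 34.5 CPM, mt-Co3 5.58 to 8.85, mt-Nd4l 1.69 to 2.61, mt-Atp6 1.62 to 3.16 and mt-Co2 1.40 to 2.44 CPM. In these 5 genes, which encode subunits of complex I, cytochrome c oxidase and ATP synthase, 98.0% to 100% of all 51-base windows of the transcript also occur in a transcript of another gene (GENCODE M21), and the counting dropped reads that align to several places. These low values are therefore uncertain as levels of the transcripts. The share was 50.6% for mt-Co1 and 62.2% for mt-Nd4, and both may be undercounted for the same reason. It was 0 for mt-Cytb, mt-Nd1 and mt-Nd6. mt-Atp8, which lies on the same transcript as mt-Atp6, had 0.445 to 0.656 CPM with 0 of its windows shared. The search covered only annotated transcripts of other genes that do not overlap the gene in question. A share of 0 therefore does not show that no reads were dropped.

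The 2 mitochondrial rRNA genes took 4.10, 2.35, 2.57, 2.88 and 2.59% of the counts. Library 1 lay far above the other 4. mt-Rnr2, the large rRNA, had 32349, 17259, 20042, 21542 and 19690.4 CPM and mt-Rnr1, the small rRNA, 8655, 6259, 5704, 7261 and 6258 CPM. Both were highest in library 1, where Fasn and Acly, lipogenic genes described below, were lowest. The 22 mitochondrial tRNA genes held 0.132% ± 0.00582 of the counts but 4.52% ± 0.161 of the TPM. Their lengths are under 200 bases, and reads of long neighbouring transcripts can be assigned to them. mt-Te, between mt-Nd6 and mt-Cytb, alone had 18589.8 ± 704 TPM from 539.8 ± 26.8 CPM. In all, mtDNA gave 22.2% ± 1.79 of the counts and 46.6% ± 2.04 of the TPM. Reads dropped for aligning to several places are missing from this total and from that of the mtDNA protein genes. Both totals may therefore be too low, and shares of classes that lose fewer reads may be too high.

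Nuclear genes of fatty acid synthesis and desaturation formed the next class, with 9.21% ± 1.12 of the counts over 18 genes. They were followed by genes of the TCA cycle and pyruvate dehydrogenase (3.15% ± 0.115), adipocyte identity and secreted proteins (2.38% ± 0.117) and fatty acid oxidation (2.12% ± 0.114). Long transcripts collect more reads per molecule, and the order changed per length. On the TPM scale fatty acid synthesis had 3.91% ± 0.518, nuclear subunits of complex IV 2.49% ± 0.140, adipocyte identity and secreted proteins 2.25%, complex I subunits 1.82% ± 0.0719 and the TCA cycle 1.77% ± 0.0913. With the length of the principal transcript, complex IV had 2.86%, the TCA cycle 2.41%, complex I 2.23% and adipocyte identity and secreted proteins 2.20%. Fatty acid uptake and binding moved from 0.911% to 2.41%, so the order of these classes depends on the length used. The 24 gene classes and the mtDNA tRNA genes, 524 genes in all, held 54.3% ± 1.04 of the counts. Long non-coding RNA genes took 0.511% ± 0.0144, pseudogenes 0.0989% ± 0.00314 and nuclear protein-coding genes 77.0% ± 1.83 by their type in GENCODE M21.

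**Figure D2:**
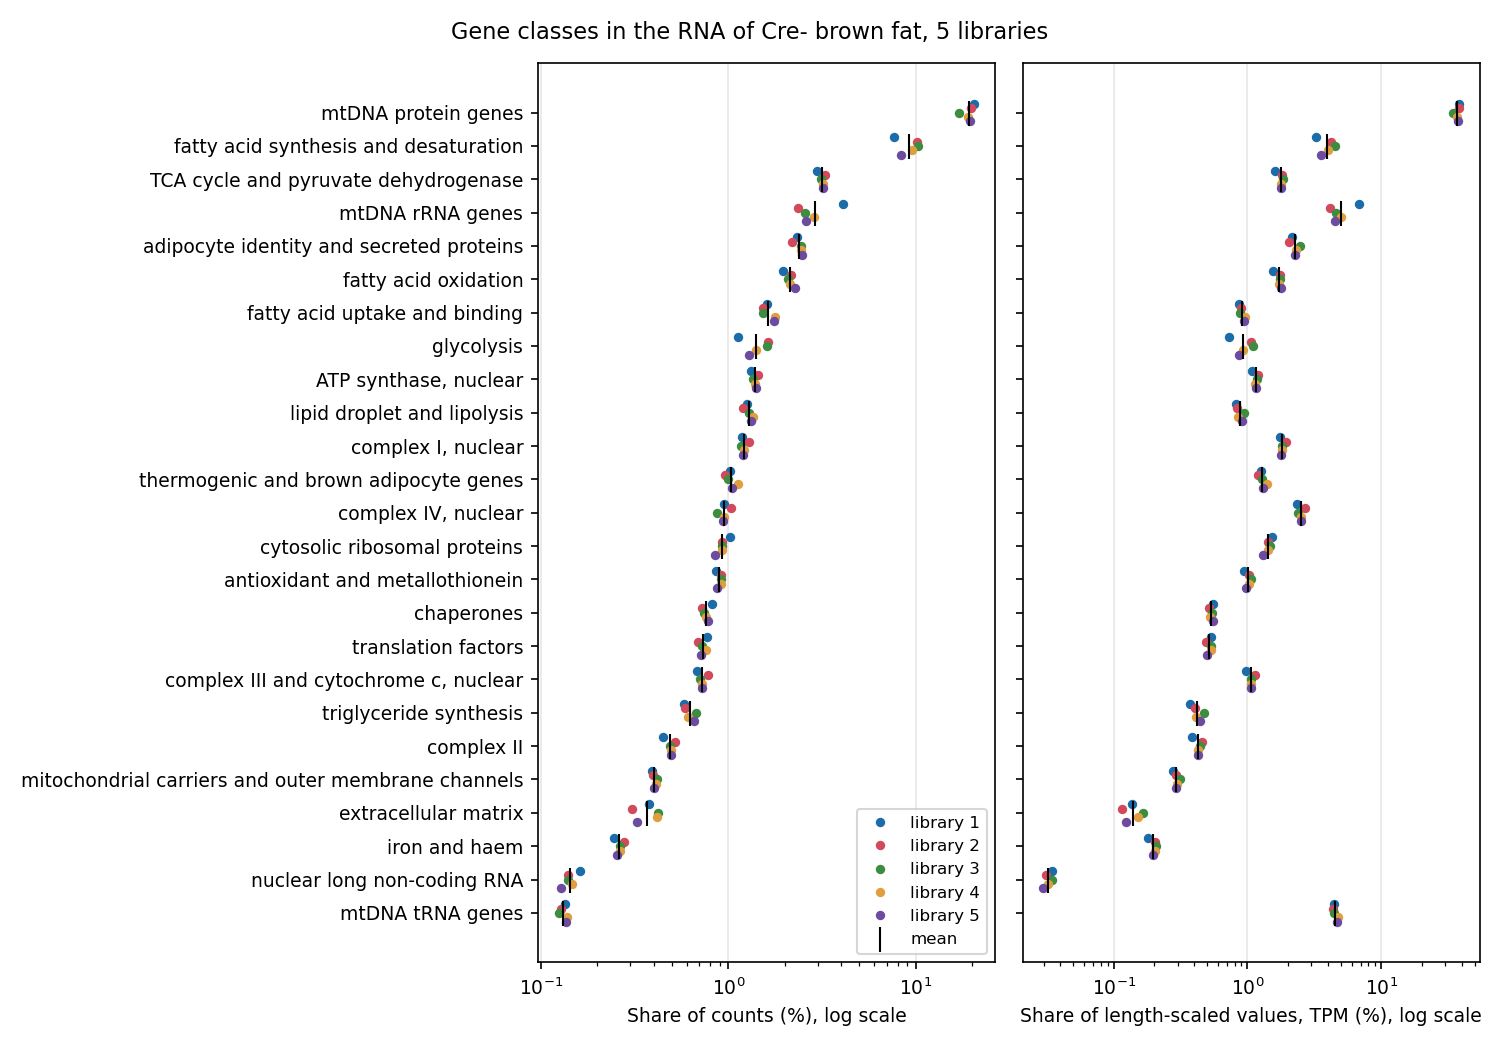
Share of counts (left) and of TPM (right) taken by each gene class in the 5 libraries, on log axes, with 1 point per library and a tick at the mean. mtDNA protein genes took 17.0% to 20.5% of counts, fatty acid synthesis 7.70% to 10.2%, and mtDNA tRNA genes move from the bottom of the left panel to 4.52% ± 0.161 of TPM on the right.

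Nuclear subunits of the respiratory chain and ATP synthase together took 4.57, 5.05, 4.58, 4.77 and 4.75% of the counts. This was a narrow range, with library 2 highest. Of 86 subunits matched, 85 had a mean of 1 CPM or more. Cox8b, the muscle and brown fat form of a small complex IV subunit, had 4883 ± 491 TPM and ranked 4 among nuclear genes. Its ubiquitous counterpart Cox8a had 2665 ± 93.6 TPM, and the 5 libraries of the 2 genes did not overlap. Cox6a1 and Cox6b1, also small subunits of complex IV, had 3918 ± 209 and 3696 ± 215 TPM.

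The other complexes had abundant subunits as well. Atp5b and Atp5a1, the catalytic beta and alpha subunits of ATP synthase, had 3368 ± 229 and 2684 ± 119.5 TPM. For complex III, Uqcr10 had 1852 ± 131 and the Rieske protein gene Uqcrfs1 1419 ± 161 TPM. The flavoprotein gene Sdha of complex II had 1636 ± 141 TPM, and Ndufa1 of complex I had 1576 ± 119 TPM. The list medians were 981, 1057, 1134, 469 and 369 TPM for complexes IV, III, II and I and ATP synthase. The nuclear subunit with the highest TPM, Cox8b, lay far below mt-Cytb at 95919 ± 3423 TPM. With the length of the principal transcript Atp5b was above Cox8b, at 5826 against 3821 TPM, and mt-Cytb had 75071 TPM.

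Scd1, the stearoyl-CoA desaturase that makes monounsaturated fatty acids, was the most abundant nuclear gene by CPM, by TPM and by TPM from principal transcripts. It had 48949, 52632, 55412, 55937 and 47702 CPM and 25361 ± 2274 TPM. All 5 libraries lay close together, and the CV, the SD as a percentage of the mean of CPM normalized by TMM, was 7.95%. Ucp1 was next per length with 5564, 5369, 5477, 7079 and 6343 TPM. Gpd1, the glycerol-3-phosphate dehydrogenase that links glycolysis to glyceride synthesis, had 5867 ± 910.5 TPM, which overlaps with Ucp1. Cox8b, Cidea and Fasn followed with 4883 ± 491, 4871 ± 349.5 and 4634 ± 1010.2 TPM, and neighbours in this order did not differ beyond their spread.

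Levels set by length depend on which length is used. Fabp4 had 4168 ± 232 TPM with the length of all its exons, 4489 bases, and 16341 ± 928 TPM with 896 bases, its principal transcript in GENCODE M21. Its rank among nuclear genes moved from 7 to 2, and Ucp1, whose 2 lengths are equal at 1636 bases, moved from 2 to 7 with 4669 ± 579 TPM. Atp5b rose from rank 16 to 3. Of the 300 genes with the most counts, 62 had an exon length over 2 times that of the principal transcript. Scd1 kept the first rank with 20083 ± 1678 TPM.

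**Figure D3:**
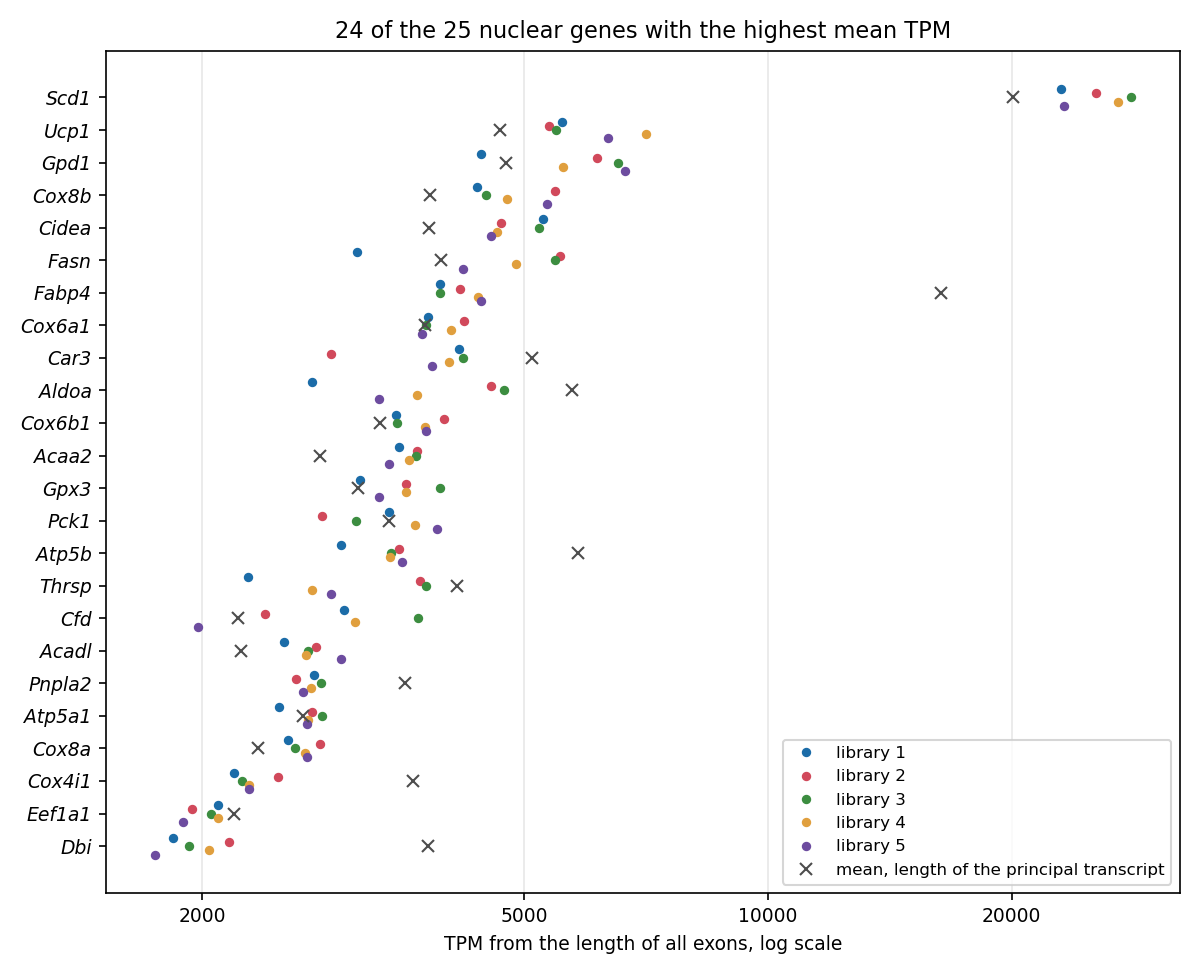
TPM of 24 of the 25 nuclear genes with the highest mean, with 1 point per library on a log axis, and crosses for the mean with the length of the principal transcript. Scd1 lies at 23001 TPM or more in every library, and the cross of Fabp4 lies far to the right of its points, at 16341 TPM.

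Many lipogenic genes differed between libraries. Fatty acid synthesis took 7.70, 10.1, 10.2, 9.58 and 8.39% of the counts, with library 1 lowest and libraries 2 and 3 highest. Fasn, the fatty acid synthase, had 14784, 25614, 24117, 22544 and 19306 CPM. Acly, which makes cytosolic acetyl-CoA from citrate, had 2014, 5863, 5395, 3249 and 3609.8 CPM. Both followed this order of the libraries, and the CV was 20.9% for Fasn and 39.1% for Acly, the highest among the 200 genes with the highest TPM. Slc25a1, the carrier that exports citrate from mitochondria, had 489.5, 823, 1054, 736 and 503 CPM and was highest in library 3. Thrsp, a lipogenic regulator, had 2169, 3447, 3339, 2522 and 2656 CPM. The glycolytic enzyme gene Aldoa had 3466, 5605, 5536, 4527 and 4049 CPM, in the same order of high and low libraries.

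Other members of the list, chosen after their values were seen, also had library 1 lowest, as did 12 of the 18 genes in all, these included. Of all genes with a mean of 1 CPM or more, 24.4% were lowest in library 1. Acaca, the acetyl-CoA carboxylase of the cytosol, had 1315, 2581, 2471, 2088 and 1965 CPM, Acss2, which makes acetyl-CoA from acetate, 377, 835, 759, 538 and 378 CPM and the second desaturase Scd2 154, 521, 314, 235 and 223 CPM. Scd2 was 3.38 times as high in library 2 as in library 1. Of the 18 genes, 5 had a CV over 25% (27.8%, against 8.88% of all genes with a mean of 1 CPM or more). The list was not matched by level, and among all genes this share was 18.0% from 1 to 10 CPM and 3.78% from 10 to 100 CPM. Scd1 did not share the spread of those 5 genes. It holds 64.9% of the TPM of the list, and the share of the whole class had a CV of 12.2% against a median of 18.9% for single members.

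Thermogenic and brown adipocyte genes other than Ucp1 and Cidea were much lower. The 30 genes took 1.02, 0.956, 1.00, 1.13 and 1.05% of the counts, and Ucp1 alone was 46.2% of their TPM. Kcnk3, a potassium channel of brown adipocytes, had 348 ± 45.2 TPM and Letmd1, a mitochondrial protein of brown fat, 297 ± 30.3 TPM. The following members were chosen after their values were seen. Dio2, the deiodinase that activates thyroid hormone, had 575, 251, 385, 592 and 411 CPM. The coactivator gene Ppargc1a had 219.7, 101, 264, 269.8 and 184 CPM. Both were lowest in library 2. Elovl3, a fatty acid elongase that is strongly cold-inducible, had 8.26, 34.4, 24.5, 31.7 and 47.2 CPM, lowest in library 1 and highest in library 5. Adrb3, the beta-adrenergic receptor of adipocytes, had 148, 214, 162, 200.2 and 195 CPM.

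Some genes discussed for heat production, also chosen after their values were seen, had few or no counts. Ckmt2, a mitochondrial creatine kinase, had 0, 3.22, 0.127, 0.0245 and 0.0103 CPM, so that nearly all its counts came from library 2, which also held skeletal muscle transcripts. Ckmt1 had 0.0163 to 0.0676 CPM, and Gatm, an enzyme of creatine synthesis, 1.36 to 5.16 CPM. The secreted factor genes Fgf21 and Bmp8b had 0.0490 to 0.185 and 0.158 to 0.615 CPM. In all, 25 of the 30 genes had a mean of 1 CPM or more. The 8 with a CV over 25% made up 32.0% of these, against 8.88% of all genes with a mean of 1 CPM or more. The list was not matched by level. Among all genes this share was 18.0% from 1 to 10 CPM and 3.78% from 10 to 100 CPM.

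Genes of lipid storage and use were abundant, and single members differed in how steady they were. Pnpla2, the adipose triglyceride lipase, had 3614, 3335, 3419, 3474 and 3381 CPM and a CV of 3.70%. Its inhibitor G0s2 had 506, 599.6, 679, 377 and 623 CPM, lowest in library 4. The droplet proteins Cidec and Plin1 had 1081 ± 144 and 643 ± 59.7 TPM. Lpl, the lipoprotein lipase that releases fatty acids for uptake, had 4299.6, 3112, 4176, 5317 and 4834 CPM and was lowest in library 2. For triglyceride synthesis, Dgat2, which adds the last acyl chain, had 1936 ± 253 TPM. The adipokine gene Cfd had 1202, 934, 1375, 1201 and 766 CPM, with libraries 2 and 5 lowest. Pck1, the key enzyme of glyceroneogenesis, had 3375 ± 433 TPM and Car3, a cytosolic carbonic anhydrase, 3825 ± 542 TPM.

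The oxidation and TCA genes had median CVs of 9.61% and 9.69%, close to the 9.96% of all genes. These lists were not matched by level, and the median was 7.71% for genes from 100 to 1000 CPM and 9.34% above. Acaa2, the last enzyme of beta-oxidation, had 2308, 2361, 2246, 2305 and 2171 CPM. Acadl and Acadm, acyl-CoA dehydrogenases of long and medium chains, had 2729 ± 159 and 1298 ± 150.3 TPM. Of the 28 genes of the TCA cycle and pyruvate dehydrogenase, 0 had a CV over 25%, and of the 30 fatty acid oxidation genes, 2 did, the highest at 40.1%. Pdk4, a kinase that switches off pyruvate dehydrogenase, had 1574 ± 119.9 TPM and Pdha1, the subunit it acts on, 1343 ± 159 TPM, and their libraries overlap. With the length of the principal transcript the order turned, with 1241 ± 98.7 for Pdk4 and 1377 ± 154 TPM for Pdha1. Glycolysis took 1.13, 1.64, 1.60, 1.40 and 1.29% of the counts. As with fatty acid synthesis, library 1 was lowest and libraries 2 and 3 were highest, and Pkm, the pyruvate kinase, had 1504, 2041, 1954, 1817 and 1613 CPM.

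Protein genes of the translation machinery took a small part of the counts in these libraries, which were selected for poly(A). The 79 cytosolic ribosomal protein genes took 1.02, 0.927, 0.927, 0.927 and 0.850% of the counts and 1.43% ± 0.0834 of the TPM, or 2.03% with the length of the principal transcript. The median ribosomal protein gene shares 44.4% of its 51-base windows with a transcript of another gene, and 34 of the 79 share over 50%, so these levels are uncertain. Eef1a1, the elongation factor, had 2015 ± 91.9 TPM and Rplp1, a stalk protein of the ribosome, 1173 ± 68.9 TPM. Among the chaperones, Hsp90ab1 had 1210.4 ± 59.8 TPM and Hspa8 had 1083, 629, 821, 916 and 781 CPM, highest in library 1. Eef1a1 and Hspa8 share 57.1% and 74.6% of their windows, so their levels are uncertain as well. Gpx3, a secreted glutathione peroxidase, had 3504 ± 303 TPM and the iron storage gene Fth1 1213 ± 41.7 TPM. The nuclear RNAs Malat1 and Neat1 had 518 ± 40 and 775 ± 105 CPM.

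Markers of other cell types ranged from abundant to nearly absent. Endothelial markers summed to 1945, 1419, 1739, 1480.4 and 1478 CPM, highest in library 1, and Aqp1, a water channel of capillaries, was the most abundant of them with 418 ± 107 TPM. Fibroblast and preadipocyte markers summed to 936, 702, 961, 952 and 609 CPM, lowest in libraries 2 and 5. Smooth muscle and pericyte markers summed to 742 to 969 CPM and were led by Rgs5, a pericyte gene. Macrophage markers summed to 106 to 139 CPM, with Lyz2 at 22.9 to 29.5 CPM. Globin and other blood cell markers summed to 199 to 416 CPM. The globin genes Hba-a1, Hba-a2, Hbb-bs and Hbb-bt share 67.3%, 86.7%, 65.7% and 58.2% of their windows with a transcript of another gene. Reads that align to several places were dropped, so the blood cell sum may be too low. B cell markers summed to 5.15 to 14.1 CPM and T cell markers to 2.52 to 4.08 CPM, with 1 of 10 and 0 of 10 genes at 1 CPM or more. In bulk RNA, fewer cells of a type and less RNA per cell cannot be told apart.

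Epithelial markers were close to absent. The 8 genes summed to 0.113 to 0.389 CPM, and Krt5, Krt14 and Csn3 had 0 counts in every library. Krt18 had 0.152 CPM in library 3 and 0.0302 to 0.0615 in the other libraries, and its mean fell from 0.0640 to 0.0420 CPM without library 3. Th, the enzyme of noradrenaline synthesis in sympathetic nerves, and Npy, a neuropeptide of the same nerves, were also at 0 in all libraries. They were the only 2 of 11 genes in the nerve and Schwann cell list at 0. Dbh, another sympathetic gene of that list, had over 3 counts in at least 1 library. The cell bodies of these nerves lie outside the depot. Genes of Schwann cells, the glia that wrap peripheral nerve fibres, were found as well. Mal and Prx, members of that list chosen after their values were seen, were lowest in libraries 2 and 5. Mal had 2.72, 1.41, 4.92, 4.78 and 1.49 CPM and Prx 1.40 to 8.0 CPM.

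The skeletal muscle markers marked library 2. Their sum was 79.5, 744, 102, 64.9 and 58.9 CPM, and without library 2 the mean fell from 209.9 to 76.3 CPM. Myh4, a fast myosin heavy chain, had 1.45, 141, 5.60, 0.0653 and 0 CPM. Acta1, skeletal actin, had 1.77, 87.3, 3.42, 0.228 and 0.0820 and the muscle creatine kinase gene Ckm 0.551, 50.9, 1.49, 0.00816 and 0 CPM. Library 2 was highest for all 20 genes of the list, against 23.1% of all genes with a mean of 1 CPM or more. Library 3 was next for 18 of them, at a much lower level. Myl1, a myosin light chain, was an exception in level, with 53.9, 81.5, 52.3, 51.1 and 47.8 CPM, and had 47.8 CPM or more in the libraries where Myh4, Acta1 and Ckm were near 0.

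Transcripts of the genes with the highest TPM were short, and so were their proteins. The 100 nuclear genes with the highest TPM had a median principal transcript of 1494 bases and a median protein of 311 residues, against 3011 bases and 466 residues for the other 12149 nuclear genes with a mean of 1 CPM or more. Proteins under 150 residues made up 30.3% and 6.49%. Division by length favours short genes, so a ranking by TPM selects for them. Of the 100 nuclear genes with the most counts, only 5.05% encoded such a protein. Their median protein had 430 residues and their median principal transcript 2403 bases.

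Promoter sequences from RefSeq (GRCm38.p6) were matched by symbol for 73 of these 100 genes. The letters TATAAA on the strand of the gene, wholly between 45 and 15 bases before the start, were found in 0 of 73 genes. They were found in 1.34% of the other genes with a mean of 1 CPM or more, in 4.18% of genes under 1 CPM and in 2.57% of all 27025 genes with a promoter sequence. TATANA, searched after the data had been seen and including TATAAA, was found in 4 of 73 genes (5.48%), namely Ucp1, Pck1, B2m and an upstream start of Fth1. It was found in 2.02% of the other genes with a mean of 1 CPM or more, in 6.22% of genes under 1 CPM and in 4.10% of all genes. CCAAT on either strand in the 250 bases before the start was found in 46.6% of the 73 genes, in 40.2% of the other genes with a mean of 1 CPM or more and in 37.5% of all. The sequences are shown because the uncoupler Ucp1 and the glyceroneogenic Pck1 carry the TATANA letters and Cox8b, Fasn and Atp5b do not. Scd1, Gpd1, Fabp4 and Car3 were among the genes without a promoter sequence, so theirs were not searched. Each is the 60 bases before the start, with TATANA in capitals. In GRCm38.p6 they lie at chr8:83290288-83290347 (plus strand) for Ucp1, chr2:173153013-173153072 (plus) for Pck1, chr7:140900447-140900506 (minus) for Cox8b, chr11:120824548-120824607 (minus) for Fasn and chr10:128083247-128083306 (plus) for Atp5b.
Ucp1: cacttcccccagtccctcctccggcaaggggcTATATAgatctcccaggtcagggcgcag
Pck1: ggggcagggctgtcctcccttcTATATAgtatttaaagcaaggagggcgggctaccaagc
Cox8b: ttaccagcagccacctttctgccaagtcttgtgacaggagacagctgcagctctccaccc
Fasn: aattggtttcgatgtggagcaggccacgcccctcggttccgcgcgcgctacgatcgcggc
Atp5b: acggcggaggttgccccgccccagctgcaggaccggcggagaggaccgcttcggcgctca
In Ucp1 the letters start 28 bases and in Pck1 38 bases before the start. A match of letters is a description of the sequence and not of a bound factor.

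Most genes differed little between the 5 mice. Among 12283 genes with a mean of at least 1 CPM, the median CV was 9.96%, and counting error alone would give 2.26% if every count were a separate molecule. A CV over 25% was found for 1091 genes (8.88%) and under 5% for 1526 (12.4%). The median CV was 15.2% from 1 to 10 CPM, 8.04% from 10 to 100 CPM, 7.71% from 100 to 1000 CPM and 9.34% above. Libraries 1 and 2 were most often at the ends, with library 1 highest for 26.0% and lowest for 24.4% of genes and library 2 for 23.1% and 25.3%. Library 3 was highest for 14.1%. Between pairs of libraries the mean chi-square per gene was 65.3 to 233. For 1 library deposited in 2 files it would be about 1 or less if every count were a separate molecule. A read pair can give 2 counts here, which would raise that value.

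The gene classes differed in how steady they were. The median CV was 6.69% in complex II, 6.91% in translation factors and 7.14% in antioxidant genes. It was 7.31% in ATP synthase, 7.44% in complex I and 7.48% in ribosomal proteins, and these values are all below the median of all genes. It was 18.9% in fatty acid synthesis, 20.5% in extracellular matrix and 21.4% in iron and haem genes. The lists were not matched by level. Among all genes the median CV was 15.2% from 1 to 10 CPM, 8.04% from 10 to 100 CPM and 7.71% from 100 to 1000 CPM, so the lower list medians are near those of abundant genes. Of the 28 matrix genes, 8 had a CV over 25%, among them Col3a1, a fibrillar collagen, with 236, 210.3, 411, 393 and 214 CPM. Libraries 3 and 4 were high for Col3a1, while Sparc, the most abundant matrix gene, had 791, 622, 831, 771 and 656 CPM. Clock genes had a median CV of 28.3%, immediate early genes 32.6% and skeletal muscle markers 204%.

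**Figure D4:**
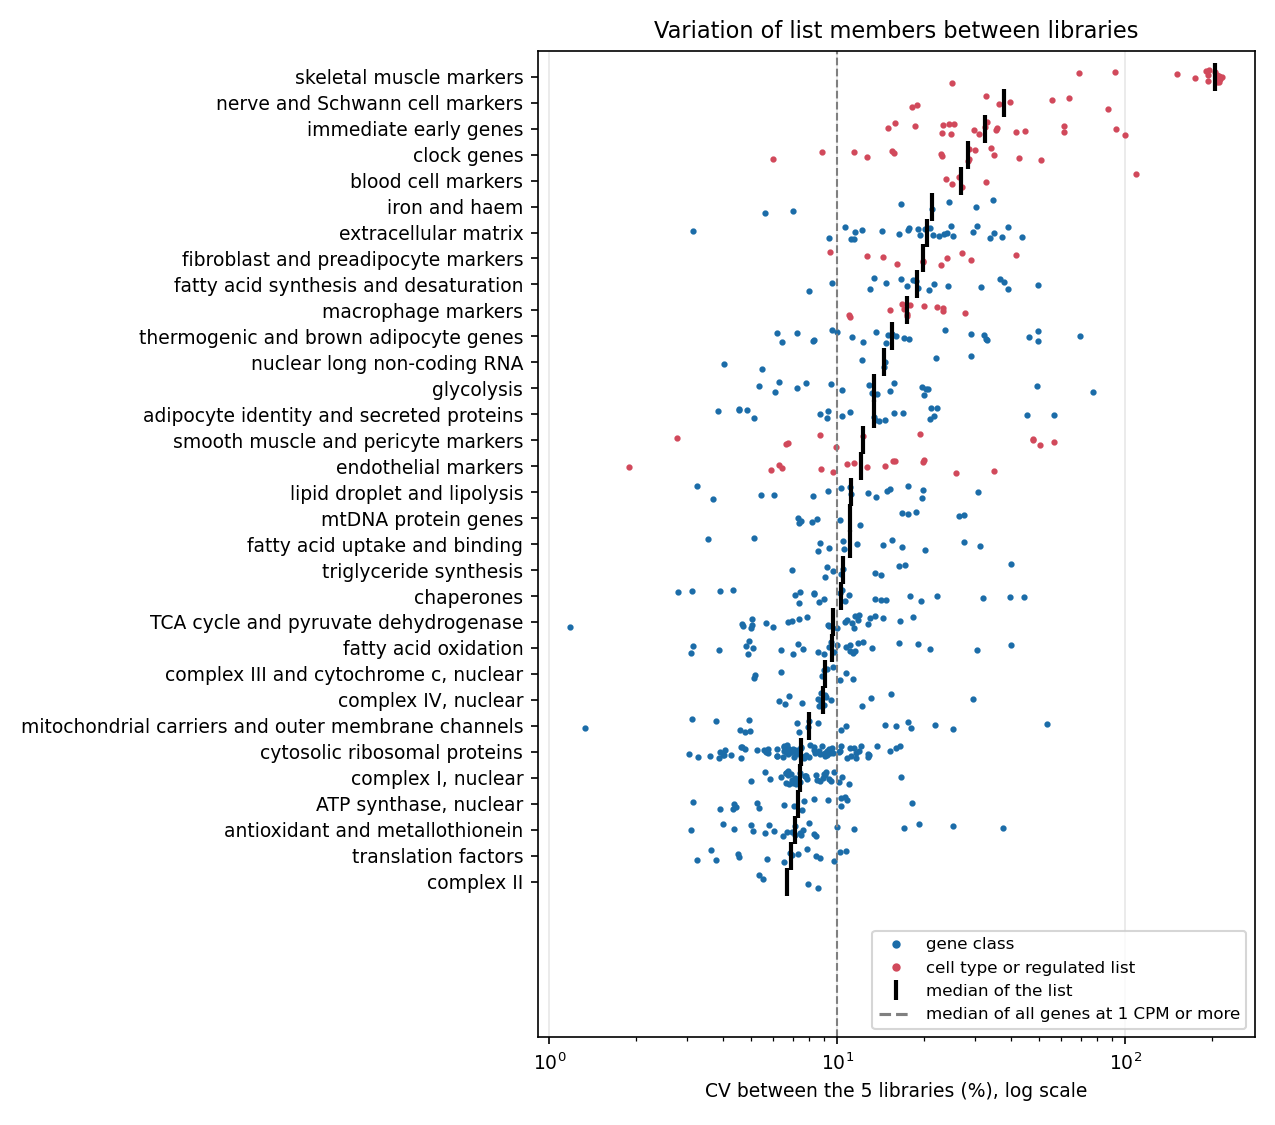
CV between the 5 libraries, on a log axis, for members of each list with a mean of at least 1 CPM, with ticks at the list median and a dashed line at the median of all 12283 genes (9.96%). Lists of respiratory chain, translation, antioxidant and mitochondrial carrier genes lie at the bottom with medians of 6.69% to 9.07%, and skeletal muscle markers lie at the top at 204.4%.

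Some genes hardly differed between libraries. Among genes with a mean of at least 10 CPM, the lowest CV belonged to Arhgef11, a guanine nucleotide exchange factor, with 40.2, 39.1, 41.0, 38.6 and 39.6 CPM (0.321%), Cops4, a subunit of the COP9 signalosome (0.576%), Pitpnb, a phosphatidylinositol transfer protein (0.664%), and Metap2, a methionine aminopeptidase (0.715%). Suclg2, a subunit of succinyl-CoA ligase in the TCA cycle, had 102, 97.7, 104, 99.5 and 101 CPM (1.18%). Among the 200 genes with the highest TPM, Itm2b, a membrane protein, had 540.3, 541, 574, 557 and 542 CPM (2.80%), Hadh, an enzyme of beta-oxidation, 1218, 1149, 1199, 1157 and 1111 CPM (3.10%), and Phyh, an enzyme of peroxisomal alpha-oxidation, 596, 559.9, 572, 568 and 552 CPM (3.16%). With 5 libraries and 7861 genes at this level, the lowest values are the extreme of many. Counting error alone had a median of 1.78% for genes from 10 to 100 CPM. The 0.321% of Arhgef11 lies below this, so it does not measure how little the mice differ. The reference gene Rplp0, a ribosomal stalk protein, had 331, 308, 307, 324 and 315 CPM (4.64%).

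The most variable genes apart from muscle markers fell into several groups of libraries. Nr4a1, an orphan nuclear receptor induced within minutes by adrenergic signals, had 90.2, 557, 63.9, 93.7 and 243 CPM. Library 2 was highest and library 5 next, and without library 2 the mean fell from 209.6 to 122.7 CPM. Immediate early genes as a list summed to 684, 1249, 651, 622 and 751 CPM. Without Nr4a1 the sums were 594, 692, 587, 529 and 508 CPM, still highest in library 2. Fos and Egr1, immediate early genes chosen after their values were seen, were low, at 0.685 to 1.91 and 8.86 to 19.0 CPM. Nr4a2, a receptor of the same family chosen after its values were seen, had 28.2, 118, 58.9, 37.3 and 50.8 CPM. The third member Nr4a3 had 101, 85.6, 168, 130.3 and 78.7 CPM and was not highest in library 2.

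Cish, a feedback inhibitor of cytokine signalling, had 19.0, 4.54, 38.7, 18.2 and 70.2 CPM and was highest in library 5. Itih4, a secreted protein of the acute phase, had 4.10, 3.37, 14.4, 23.1 and 5.73 CPM and Hp, haptoglobin, 575, 820, 919, 1461 and 961 CPM, and both were highest in library 4. The interferon-induced gene Iigp1 had 18.5, 8.70, 13.7, 41.1 and 10.8 CPM. Ifi27l2a, also interferon-induced, had 54.3, 83.8, 109, 123 and 74.7 CPM, and both were again highest in library 4. Rnf144b, a ubiquitin ligase, had 15.8, 46.0, 12.5, 9.35 and 18.1 CPM, highest in library 2. Eno3, the muscle enolase, had 8.23, 26.9, 8.20, 7.01 and 6.99 CPM, and its mean fell from 11.5 to 7.61 CPM without library 2, where muscle markers were also highest. Txnip, a regulator of glucose uptake, had 962, 622, 535, 964 and 689 CPM, with libraries 1 and 4 above the others.

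Of the clock genes, Nr1d1, a transcriptional repressor, had 150, 115, 129.8, 138 and 63.1 CPM and Dbp, an output factor of the clock, 61.6, 69.5, 69.0, 47.8 and 31.1 CPM, both lowest in library 5. Bhlhe40, a repressor of the clock loop, had 57.0, 122, 252, 119.8 and 117 CPM, highest in library 3 and lowest in library 1. Tef, a relative of Dbp, had 238, 206, 229, 195 and 209.5 CPM and a CV of 5.99%. The cause of these differences was not tested.

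**Figure D5:**
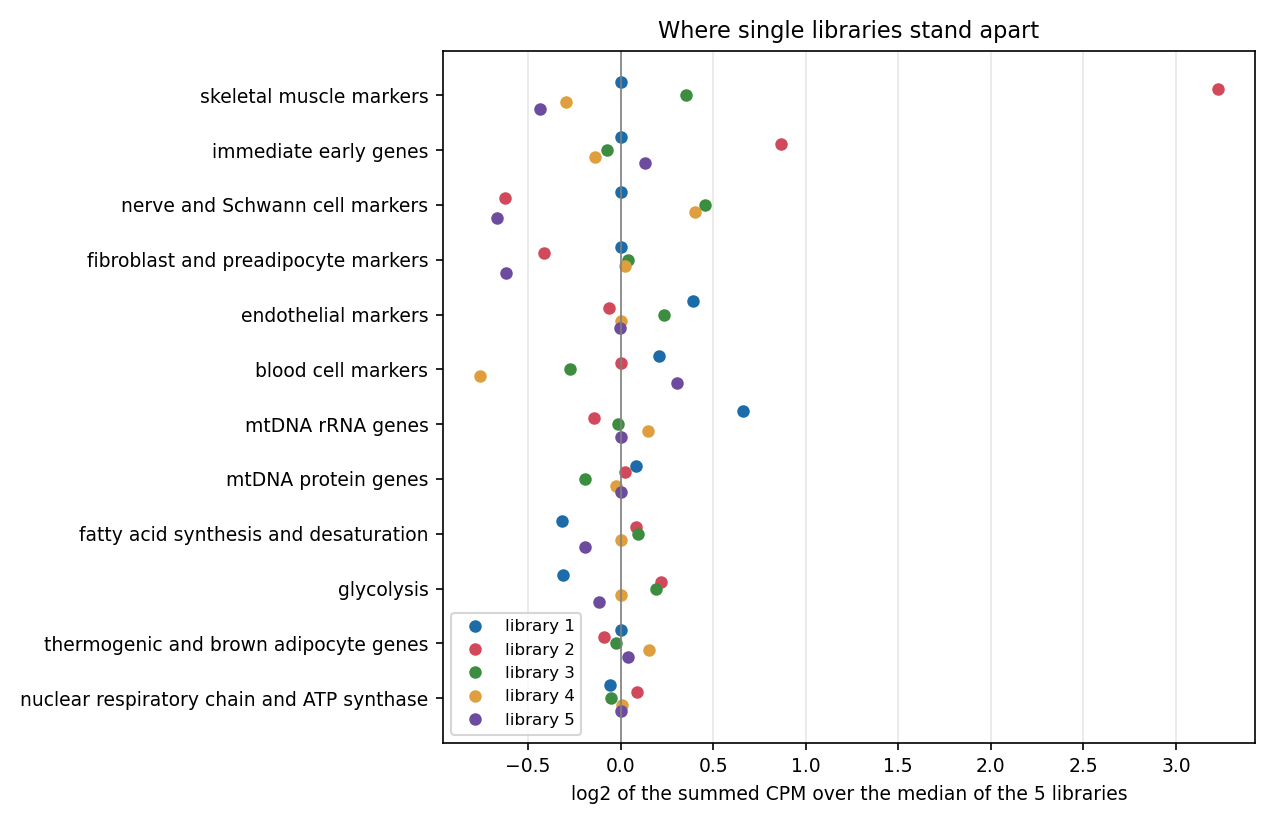
Summed CPM of 12 gene groups in each library, as the log2 ratio to the median of the 5 libraries, with 1 point per library. Library 2 lies at 3.23 for skeletal muscle markers and 0.87 for immediate early genes, library 1 at 0.66 for mtDNA rRNA genes, and libraries 2 and 5 lie at -0.62 and -0.67 for nerve and Schwann cell markers.

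Several of these patterns share libraries. Libraries 2 and 5, low in Mal and Prx, were also low in fibroblast markers such as Gsn, an actin regulator, with 621, 449, 621, 627 and 358 CPM, and Dcn, a proteoglycan, with 120.1, 91.1, 134, 122 and 79.8 CPM, and high in Nr4a1. Trf, which encodes the iron carrier transferrin, had 88.8, 49.5, 96.8, 106 and 60.7 CPM and was lowest in the same libraries. Library 1, highest in mtDNA rRNA, endothelial markers and Hspa8, was lowest in fatty acid synthesis and glycolysis. With 5 libraries no correlation was computed, and the cause of these differences was not tested.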

How the data were processed

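RNAseq of iBAT from 5 Cre- mice was analysed, and the 5 Cre+ libraries of the series were not used. According to the paper's methods and the submitters' processing notes, RNA was selected for poly(A). The authors used Trimmomatic for trimming, STAR for alignment to GRCm39, both with no version stated, and featureCounts 2.0.1 for counting. RNA isolation is credited to an RNeasy kit in the labels and to a PeqGOLD kit in the paper. The deposited values are raw counts per gene of GENCODE M28. Per the file headers both mates were counted singly, without regard to strand, and multi-mapping reads were dropped. A pair can therefore give 2 counts, and counting errors given here are lower bounds. No rows without a gene identifier were present.

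CPM were counts over the total count of the library. TPM were counts over the exon length given in the files, scaled to a sum of 1000000. The CV is the SD over the mean of CPM with TMM library sizes from edgeR 4.0.16 in R 4.3.3, over genes with a mean of at least 1 CPM. The counting part is the square root of the mean of the inverse counts. The symbol table matched 52081 of 55414 genes (94.0%). Gene types, principal transcripts (APPRIS) and shared windows came from GENCODE M21 (GRCm38), joined by gene identifier, with no coordinates carried over. Promoter sequences came from RefSeq (GRCm38.p6). The CV and the counts of genes were checked on simulated data.

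The 5 libraries, the 36 gene lists and the rule for naming genes were chosen with earlier results of these data known. Of the list genes, Atp5mj and Atp5mk were not matched, and Adipsin is another name of Cfd. The rule takes Ucp1, Cidea, Fabp4, mt-Co1 and Retsat, the 25 genes with the highest mean CPM and TPM, up to 4 members of each list by mean TPM and markers at 0, the 12 highest and 12 lowest CV among genes with at least 10 CPM, and the 10 highest and 10 lowest among the 200 genes with the highest TPM. The choice among these for the text was made with their values in view. Promoters were searched for the 100 nuclear genes with the highest TPM. Alternatives were TPM, other denominators, filters and library sizes (TMM, DESeq2 1.42.0) and leaving out each library. The length of the principal transcript, TPM without mtDNA genes and the CV without muscle markers were added after seeing the data. With 1 group, no test, p-value or correlation was computed. A few genes of the rule are not reported here.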

Additional observations from a re-analysis of the deposited data

Results flagged for a closer look

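In a group of 5, a library was taken as far from the others when its gap to the nearest made up over 0.71 of the range. Of 223 values looked at (class shares, list sums and named genes), 15 had such a library (6.73%), and chance sets a library apart in about 1 in 20 independent groups. These values are not independent, since sums stand beside their members and some genes were named for a high CV, so the 2 rates cannot be compared. The far library was library 2 in 11 cases, library 1 in 3 and library 3 in 1.

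Library 2 was far above the others for the sum of skeletal muscle markers, with 744.5 CPM against 58.9 to 101.8 in the other 4. The muscle genes with this pattern were Myh4 (141.1 CPM), Acta1 (87.3), Myl1 (81.5), Atp2a1 (62.5), Tnnt3 (61.9), Ckm (50.9), Mylpf (37.3) and Eno3 (26.9). For Myl1 and Eno3 the other libraries held 47.8 to 53.9 and 6.99 to 8.23 CPM, and for the other 6 genes they held at most 5.60 CPM. The same library was far above the others for the sum of immediate early genes, with 1249 CPM against 622.2 to 750.9. Without Nr4a1, a choice made after seeing the data, the sum was 692 CPM against 508 to 594, and its gap was 0.534 of the range, below the limit. Library 2 was also far above the others for the ubiquitin ligase gene Rnf144b, with 46.0 CPM against 9.35 to 18.1. The causes were not tested.

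Library 1 was far above the others for mt-Rnr2, with 32349 CPM against 17259 to 21542, and for Des, the intermediate filament gene of muscle and pericytes, with 67.8 CPM against 56.7 to 59.8. It was far below them for the ferritin gene Ftl1, with 265.0 CPM against 295.1 to 307.0. Ftl1 shares 74.4% of its windows with another gene. Krt18 had 0.152 CPM in library 3 against 0.0302 to 0.0615 in the others.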

How the results depend on the processing

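mtDNA protein genes took 19.1% of counts, 37.0% of TPM and 29.0% of TPM from principal transcripts. Fatty acid synthesis took 9.21% of counts, 11.8% of nuclear counts, 3.91% of TPM and 3.52% of TPM from principal transcripts. The nuclear respiratory chain and ATP synthase took 4.75% of counts, 6.10% of nuclear counts, 6.95% of TPM and 8.61% of TPM from principal transcripts. The mean number of genes that hold 50% was 131 for counts, 18.4 for TPM, 50.2 for TPM from principal transcripts, 390.4 without mtDNA genes and 245.4 for TPM without them. The median CV was 33.1% without a filter on low counts, and a CV over 25% was then found for 16951 genes, against 293 genes at 10 CPM or more.

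Leaving out each library in turn gave 18.8% to 19.7% for mtDNA protein genes, 8.95% to 9.59% for fatty acid synthesis, 4.67% to 4.79% for the respiratory chain, 126 to 134 genes that hold 50%, 11764 to 11798 genes detected, a median CV of 8.92% to 10.3%, 953 to 1245 genes over 25%, and 76.3 to 247.7 CPM for skeletal muscle markers, lowest without library 2. TMM or DESeq2 library sizes moved the mean of each of 182 named genes by less than 1 SD. Leaving out library 2 lowered the mean by over 1.5 times for Acta1 (to 1.38 CPM), Tnnt3 (0.793), Mylpf (1.17), Atp2a1 (1.02), Myh4 (1.78), Ckm (0.512), Eno3 (7.61), Nr4a1 (122.7) and Krt8 (0.0205), and leaving out library 3 did so for Krt18 (0.0420) and Epcam (0.00377). No paired analysis was possible because the libraries belong to 1 group and no test was made. Depth limits genes near 0.0226 to 0.0326 CPM, and unstranded counting and uncounted reads with several alignments limit overlapping and copied genes.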
